A study of Mus musculus with 59 samples.

Results

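The comparison described here is voluntary running after prenatal valproic acid (VPA), read in the hippocampus of adult mice. The labels chose its members: 3 arrays of hippocampus from mice exposed to VPA before birth and later given a running wheel (VPA+RW), against 3 arrays from mice exposed to VPA and kept with no wheel (VPA). These are 6 of the 59 arrays in the series, which fall into 19 groups. All mice were C57BL/6 males, 12 to 13 weeks old, that had not been through behavioural testing. Their dams took VPA by mouth at 300 mg/kg once a day for 3 days from embryonic day 12.5, so both groups compared share the prenatal drug and differ in the wheel, which was put in the cage after weaning. Used beside them were hippocampus of mice whose dams took only the vehicle, 0.5% methylcellulose, without (MC) or with a wheel (MC+RW), 3 arrays each. Cortex of VPA and VPA+RW mice (3 arrays each) and hippocampus of male MC and VPA mice at postnatal day 84 (P84, 4 arrays each) were used as well. The arrays of a group are called biological replicates. The labels do not name the litters, the distance run or the hour at which tissue was taken.

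VPA is an antiepileptic drug that also inhibits histone deacetylases, and exposure in the womb is a risk for the development of the child's brain. The hippocampus serves memory, and its dentate gyrus keeps making granule neurons in the adult mouse, at a rate that running raises. Running also engages activity-driven transcription: neuronal firing induces immediate early genes such as Fos and Arc, and then growth factors such as Bdnf. Locomotion is itself timed by the circadian clock, in which ARNTL and CLOCK switch on Per, Cry, Nr1d and Dbp genes, whose products feed back on the cycle.

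Each array read total RNA on an Affymetrix Mouse 430 2.0 chip, with several probe sets for many genes. Signals are linear intensities scaled so that each array has the same trimmed mean, 500, and 1 probe set stands for a gene. Before scaling, the trimmed means of the 6 arrays ran from 291 to 330.2. The signal ratio of 3' to 5' probe sets, a sign of RNA quality, was 1.23 to 1.3 for actin and 0.766 to 0.791 for Gapdh. No pair of the series' arrays held identical values. In the VPA and VPA+RW arrays, markers of dentate granule neurons summed to 24465 to 27647 in hippocampus and 19069 to 20543 in cortex, and markers of cortical layers to 24758 to 26600 and 38043 to 39914, as the tissue labels state. Haemoglobin and other blood markers summed to between 51 and 224 in the 6 arrays, at the low end of the scale. The tissue is bulk, so fewer cells of a type and less RNA per cell cannot be told apart.

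1 array stood apart. VPA+RW replicate 3 had a summed signal of 26299 over 24 immediate early genes, against 42115 and 42419 in replicates 1 and 2 and 33724 to 37475 in the VPA arrays. Its signals for the clock genes Dbp and Ciart also lay nearer to those of the VPA mice than replicates 1 and 2 did. The summed signal of the whole clock list was 17772, 17986 and 18389 in VPA+RW replicates 1, 2 and 3, and 20641 to 22622 in the VPA arrays. By the sum, replicate 3 was thus only slightly nearer to the VPA mice. The list's median log2 difference was -0.28 with this array and -0.16 without it. The cortex array that carries the same group and number also had Dbp and Ciart nearest to the mice without a wheel. Its summed immediate early signal was 34574 against 58672 and 55797. The labels do not say whether the arrays numbered 3 came from the same mouse. Lists that moved most without this array are given with and without it.

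No gene passed the test. limma, fitted over the 12 adult hippocampus arrays, called 0 of 13501 genes (0%) at an adjusted p under 0.05, and the smallest adjusted p was 0.0617. At an unadjusted p under 0.05 there were 1160 genes (8.59%), of which 608 (4.5%) were higher and 552 (4.09%) lower with the wheel. The 3 VPA+RW arrays lay wholly above or below the 3 VPA arrays for 2106 genes (15.6%), 1071 higher (7.93%) and 1035 lower (7.67%). Differences were small: 220 genes were at least 1.5-fold higher and 109 at least 1.5-fold lower, and 35 and 17 reached 2-fold. With arrays weighted by their fit, limma called 34 genes, 18 higher and 16 lower, and 19 of the 20 genes named below were among them. Those 20 were picked for small p-values on the same arrays, so this overlap is no separate support for them. The median SE of a log2 difference was 0.112 and the median 95% interval, not adjusted for the number of genes, reached 0.24 to either side. Changes below that size were mostly not detectable with 3 arrays a group. Larger changes, as in most genes named below, could also miss an adjusted p under 0.05 in the fit without weights. All p-values below are limma's from this fit unless another is named.

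The higher signals in running mice with the smallest p-values included those of Igfbp6, Cdkn1a, Rab40c, Acvr1c and the clock gene Arntl, which is described with its list. Igfbp6, which binds insulin-like growth factors and prefers IGF-II, read 346, 321 and 282 in the VPA arrays and 472, 539 and 554 in the VPA+RW arrays. Its log2 difference was 0.72 (SE 0.10, adjusted p = 0.0617), 1.65-fold. Cdkn1a, the cyclin-dependent kinase inhibitor p21, read 243, 212 and 287 without and 433, 402 and 407 with the wheel, 0.75 higher on the log2 scale (SE 0.12, adjusted p = 0.0774). For both genes every running array lay above every non-running array by more than the spread within a group.

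Rab40c, which encodes a small GTPase of the Rab family, read 674, 800 and 952 without and 1477, 1408 and 1344 with the wheel (log2 difference 0.81, adjusted p = 0.0774). A second Rab40c probe set gave a log2 difference of 0.07, so the probe sets of this gene disagreed. Acvr1c, the activin receptor-like kinase ALK7, read 386, 374 and 393 against 615, 667 and 589 (0.70, adjusted p = 0.0774), and its other probe sets gave 0.67 and 0.73. Inf2, a formin that shapes actin, read 1337, 1325 and 1528 against 2025, 2259.5 and 1924 (0.57, adjusted p = 0.0794), with 0.50 at a second probe set. Ptgs2, the prostaglandin synthase COX-2 that neurons induce with activity, read 679, 714 and 703 against 1118, 999 and 1229 (0.67, adjusted p = 0.146). Unlike Fos and Arc below, Ptgs2 was high in all 3 running arrays, replicate 3 included. It was named under a rule that required no overlap between the groups.

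The remaining higher genes were Tanc1, a postsynaptic scaffold protein (0.34, adjusted p = 0.0787), Nol8, a nucleolar protein (0.84, adjusted p = 0.0794), and Fbxw16 (0.85, adjusted p = 0.146). Nol8 had other probe sets at -0.04 and 0.14. Fbxw16 belongs to a family of closely similar mouse F-box genes, whose signals a probe set may not separate.

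The 10 lower genes with the smallest p-values had log2 differences between -0.68 and -0.22, and included Wdr6, Acvr2b and Nfkbia. Wdr6, a WD-repeat protein, read 4174, 4548 and 4742 without and 3329, 3185 and 3626 with the wheel, a log2 difference of -0.41 (SE 0.06, adjusted p = 0.0617), and -0.36 at a second probe set. Acvr2b, a type II activin receptor, read 267, 281 and 223 against 159.7, 153 and 167 (-0.68, adjusted p = 0.146). Nfkbia, the inhibitor that holds NF-kappaB in the cytoplasm, read 3967, 4610 and 4049 against 3249, 3347 and 3013 (-0.39, adjusted p = 0.146). Its other probe sets gave -0.72, -0.54, -0.69 and 0.18, and in cortex its log2 difference was also -0.39 (adjusted p = 0.349). So Acvr1c and Acvr2b, both receptors of the activin family, differed in opposite directions.

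Gpc5, a heparan sulfate proteoglycan of the cell surface, read 1306, 1279.5 and 1147 against 861, 801 and 989 (-0.50, adjusted p = 0.146). Pex3, needed to build peroxisome membranes, read 1247, 1259 and 1124 against 871, 926 and 848 (-0.46, adjusted p = 0.0794), while its second probe set gave 0.01. Ctss, the microglial protease cathepsin S, read 3674, 3721 and 3903 against 3246, 3242 and 3225 (-0.22, adjusted p = 0.146). The other lower genes were Mier3 (-0.33), the ribosome assembly factor Nop53 (-0.27), the translation initiation subunit Eif3m (-0.32) and Pdxk, which makes active vitamin B6 (-0.31), with adjusted p-values of 0.146 to 0.177. For all 20 named genes the groups did not overlap, which the naming rule required.

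**Figure D1:**
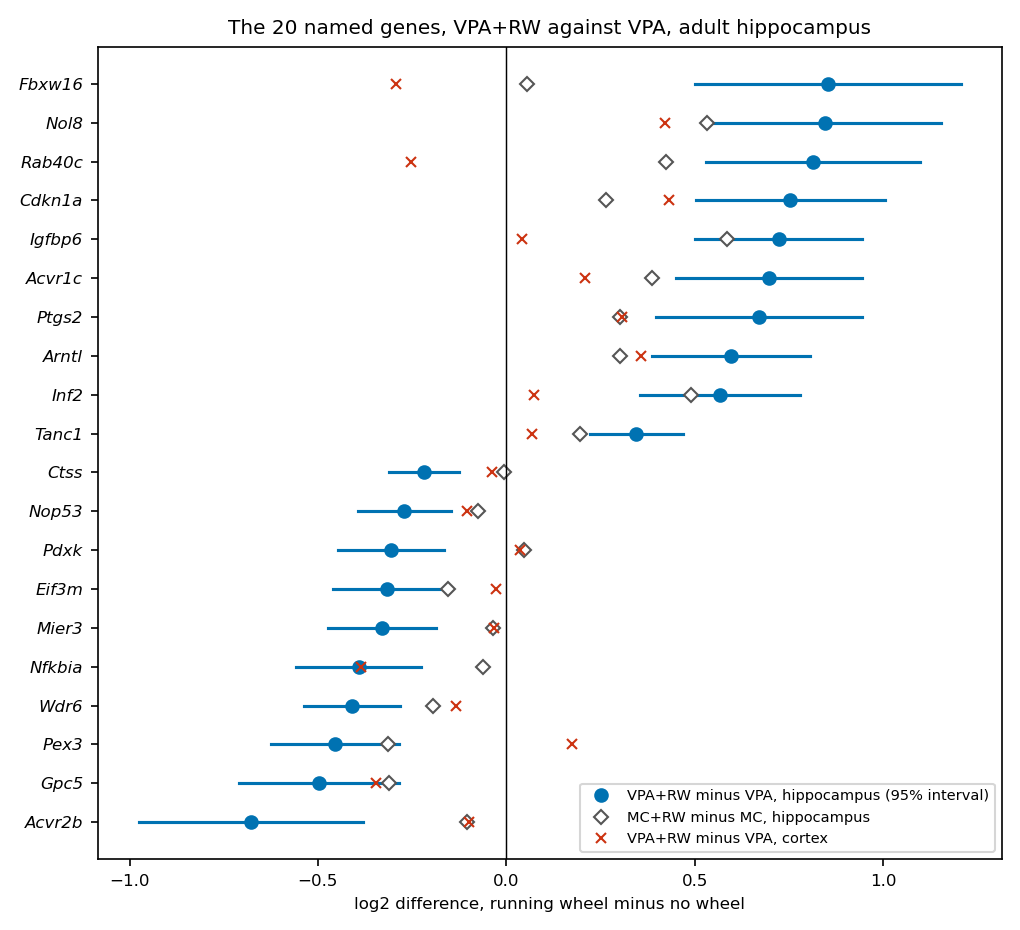
Log2 difference between wheel and no wheel (horizontal axis) for the 20 named genes: filled circles with 95% intervals for VPA+RW minus VPA in hippocampus, open diamonds for MC+RW minus MC in hippocampus and crosses for VPA+RW minus VPA in cortex. The 10 higher genes lie between 0.34 and 0.85 and the 10 lower genes between -0.68 and -0.22 in hippocampus of VPA mice, and none passed the test.

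Clock genes were mostly lower in running mice. Of 16 clock genes tested, 12 were lower and 4 higher, with a median log2 difference of -0.28 against 0.01 over all genes tested. At an unadjusted p under 0.05 there were 8 lower and 2 higher, against 4.09% and 4.5% of all genes. The groups did not overlap for 8 lower and 2 higher genes, against 7.67% and 7.93% of all genes. None passed at an adjusted p under 0.05.

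Arntl, the activating partner of CLOCK, was among the 10 named higher genes: it read 651, 884 and 701 in the VPA arrays and 1179.9, 1115 and 1059 in the VPA+RW arrays (log2 difference 0.60, SE 0.10, adjusted p = 0.0774). A second Arntl probe set gave 0.06. Dbp, an output gene that ARNTL and CLOCK drive directly, read 1907, 2160.2 and 1692 without and 689, 552 and 1650.4 with the wheel. Its log2 difference was -1.16 (SE 0.30, adjusted p = 0.296), and -0.92 at a second probe set. Ciart, a repressor of ARNTL and CLOCK, read 288, 354 and 348 against 111, 107 and 241 (-1.21, SE 0.31, adjusted p = 0.296). In both genes replicates 1 and 2 of the running group were far below the VPA arrays, and replicate 3 lay nearest to them.

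Nr1d2, the nuclear receptor REV-ERB beta that represses Arntl, read 3760.1, 4148 and 3594 against 2563, 2336 and 3329 (-0.50, adjusted p = 0.216), with -0.45 at a second probe set. Per3 read 450.1, 502 and 482 against 370.3, 360.2 and 404 (-0.34, adjusted p = 0.321), with -0.35 to -0.55 at its other probe sets. Per2 (-0.37), Cry2 (-0.29), Bhlhe40 (-0.18) and Tef (-0.13) were lower at unadjusted p-values of 0.00982 to 0.0336. Bhlhe41, a transcriptional repressor related to Bhlhe40, was higher, reading 63, 66.2 and 91.1 against 110.1, 132 and 129.7 (0.77, adjusted p = 0.508). Cry1 (-0.34), Per1 (-0.33), Hlf (-0.28) and Npas2 (-0.10) were lower and Clock (0.10) and Nr1d1 (0.02) higher without reaching an unadjusted p of 0.05. Nr1d1 turned lower, to -0.25, when replicate 3 of the running mice was left out.

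Without that array, which also had low Fos and Arc, limma called 5 of 13501 genes (0.037%), and Dbp and Nr1d2 were 2 of them. Dbp then had a log2 difference of -1.63 (adjusted p = 0.0103) and Nr1d2 of -0.65 (adjusted p = 0.0457). The list's median without it was -0.16, with 5 lower and 2 higher genes at an unadjusted p under 0.05, against 4.02% and 4.44% of all genes.

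**Figure D2:**
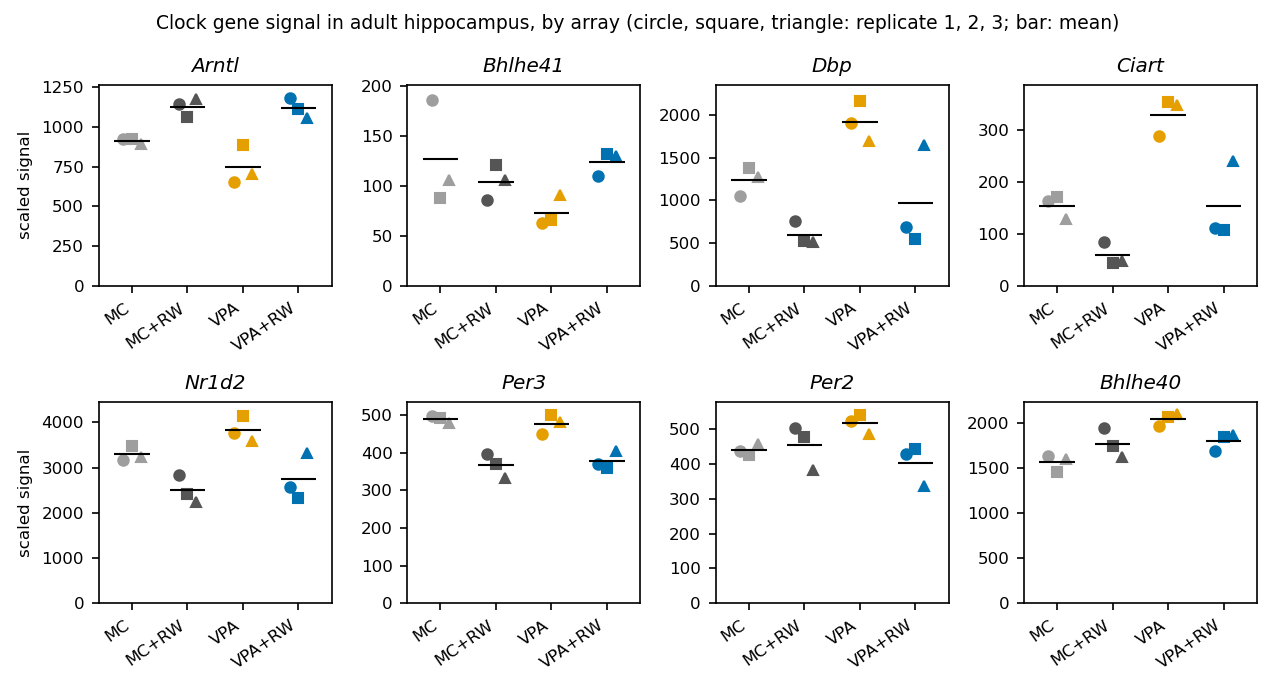
Scaled signal (vertical axis, linear, from 0) of 8 clock genes in each of the 12 adult hippocampus arrays, by group (MC, MC+RW, VPA, VPA+RW), with the group mean as a bar. Dbp and Ciart are low in both wheel groups, and VPA+RW replicate 3 (1650.4 for Dbp, 241 for Ciart) sits nearest to the mice without a wheel.

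The 250 bases before the gene start of 5 clock genes are shown, since these genes differed together and their promoters are known to be read by clock factors. Ciart and Dbp had the 2 lowest log2 differences of the list, Per3 and Nr1d2 were lower at each probe set measured, and Arntl was higher. Sequences are from RefSeq on GRCm38.p6, 5′ to 3′ on the strand of the gene, with the motifs searched for in capitals. They were read at chr3:95882229-95882478 (minus strand) for Ciart, chr4:151044666-151044915 (minus) for Per3, chr14:18239107-18239356 (minus) for Nr1d2, chr7:45704997-45705246 (plus) for Dbp and chr7:113207215-113207464 (plus) for Arntl.
Ciart: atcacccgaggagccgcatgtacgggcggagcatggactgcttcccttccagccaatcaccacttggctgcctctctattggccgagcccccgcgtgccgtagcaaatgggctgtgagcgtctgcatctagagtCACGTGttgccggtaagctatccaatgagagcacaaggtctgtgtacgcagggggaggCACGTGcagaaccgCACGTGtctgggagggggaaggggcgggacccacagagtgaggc
Per3: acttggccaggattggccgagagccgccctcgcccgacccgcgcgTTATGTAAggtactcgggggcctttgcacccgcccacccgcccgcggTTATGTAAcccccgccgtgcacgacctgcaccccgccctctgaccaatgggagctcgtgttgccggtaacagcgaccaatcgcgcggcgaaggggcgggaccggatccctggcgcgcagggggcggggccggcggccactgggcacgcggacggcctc
Nr1d2: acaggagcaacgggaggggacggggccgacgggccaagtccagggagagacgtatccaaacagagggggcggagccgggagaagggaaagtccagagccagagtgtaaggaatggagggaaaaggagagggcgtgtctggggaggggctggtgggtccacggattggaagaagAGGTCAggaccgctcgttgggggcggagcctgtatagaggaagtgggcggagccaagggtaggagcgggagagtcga
Dbp: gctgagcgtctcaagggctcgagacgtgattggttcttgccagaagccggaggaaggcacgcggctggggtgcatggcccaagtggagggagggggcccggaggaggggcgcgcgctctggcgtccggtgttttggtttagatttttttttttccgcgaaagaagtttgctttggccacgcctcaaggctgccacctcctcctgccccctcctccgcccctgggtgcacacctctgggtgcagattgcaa
Arntl: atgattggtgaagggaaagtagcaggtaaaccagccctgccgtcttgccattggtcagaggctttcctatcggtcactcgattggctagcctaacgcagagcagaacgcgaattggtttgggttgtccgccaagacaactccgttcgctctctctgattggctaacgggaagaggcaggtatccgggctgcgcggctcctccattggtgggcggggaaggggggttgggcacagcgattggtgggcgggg

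The motifs were the E-box CACGTG that ARNTL and CLOCK bind, the D-box TTATGTAA that DBP, TEF and HLF bind, and AGGTCA, the core of the element that ROR and REV-ERB receptors bind. Both strands were searched, and no matches overlapped. Of the 16 clock genes, 14 had a RefSeq promoter. The E-box was in 5 of the 14 (Ciart with 3 copies, at 116, 58 and 44 bases before the start, and Per1, Cry1, Tef and Bhlhe41 with 1 each), against 6.05% of 27025 promoters of the same length. The D-box was in 1 of the 14, Per3, with copies at 205 and 158 bases before the start, against 0.862% of promoters. AGGTCA was in Nr1d2, at 77 bases, and Per1, against 13.8% of promoters. The windows of Dbp and Arntl held none of these letters. These matches describe the letters and not where a factor was bound.

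In mice without prenatal VPA the same comparison, which uses other arrays, gave Dbp a log2 difference of -1.06 and Ciart one of -1.45. Dbp read 1049.8, 1373 and 1276 in the MC arrays and 761, 521 and 507 in the MC+RW arrays, and Ciart 164, 172 and 128 against 84.4, 44 and 47.3. All 3 MC+RW arrays were low, with none near the mice without a wheel. Arntl (0.30), Nr1d2 (-0.40) and Per3 (-0.42) had the signs seen after VPA, while Per2 (0.04), Bhlhe40 (0.17) and Bhlhe41 (-0.22) had the opposite sign. Over the list, 6 lower and 2 higher genes had an unadjusted p under 0.05, against 4.13% and 4.57% of all genes, and the median was -0.17.

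In cortex of the VPA mice the clock list had 6 lower and 2 higher genes at an unadjusted p under 0.05, against 3.26% and 2.98% of the 13640 genes tested there, with a median of -0.15. Ciart read 605, 494 and 535 without and 251, 217 and 404 with the wheel (log2 difference -0.95, adjusted p = 0.281 in the cortex fit). Dbp read 2723, 2838 and 2857 against 1317, 1149 and 2825, and Arntl 779, 666 and 726 against 997, 1037 and 765. As in hippocampus, running replicate 3 lay nearest to the mice without a wheel. At P84, where VPA and MC mice without a wheel were compared on other arrays, Dbp (0.05), Ciart (-0.05) and Arntl (0.15) differed little and no clock gene had an unadjusted p under 0.05. In adult hippocampus that comparison, which shares the VPA arrays, gave clock log2 differences from -0.74 to 1.10. At an unadjusted p under 0.05, 2 were higher and 2 lower, against 5.45% and 5.66% of all genes. Dbp and Ciart were higher there in each VPA array than in any MC array.

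Immediate early genes depended on the array left in. Over all 6 arrays 11 of 24 were higher and 13 lower, with a median of -0.03, and 3 higher and 1 lower had an unadjusted p under 0.05, against 4.5% and 4.09% of all genes. Fos, the founding gene of the class, read 1240.3, 1173 and 919.7 in the VPA arrays and 1637, 1573 and 345 in the VPA+RW arrays. Arc, which acts at synapses, read 1708, 1850.3 and 1451 against 2802, 2669.9 and 602. Both were highest in running replicates 1 and 2 and lowest of all 6 arrays in running replicate 3. Their log2 differences were -0.20 and -0.01 with that array, and 0.54 and 0.72 without it.

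Without replicate 3 of the running mice, 21 of the 24 genes were higher, with a median of 0.23, and 10 had an unadjusted p under 0.05, all of them higher, against 4.44% of all genes. None passed at an adjusted p under 0.05 there either. Fosb, whose stable splice product builds up with repeated activity, did not follow Fos: it read 202, 197 and 237 against 308, 325 and 267 and was above the VPA range in all 3 running arrays (log2 difference 0.50, adjusted p = 0.296). Egr3 (0.23, adjusted p = 0.435) and the Fos-related Fosl2 (0.28, adjusted p = 0.519) were higher as well, and the phosphatase gene Dusp1 was lower (-0.51, adjusted p = 0.571). In MC mice Fosb (0.49), Egr3 (0.31) and Dusp1 (-0.76) had the same signs. Over the whole list, however, MC running gave 10 of 24 higher and 14 lower, with a median of -0.08. The difference between the running effects after VPA and after vehicle was above 0 for 12 of the 24, and for 21 without VPA+RW replicate 3. In cortex the Fosb difference was 0.03. With all cortex arrays, replicate 3 included, 6 of the 24 were higher and 18 lower, with a median of -0.19.

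**Figure D3:**
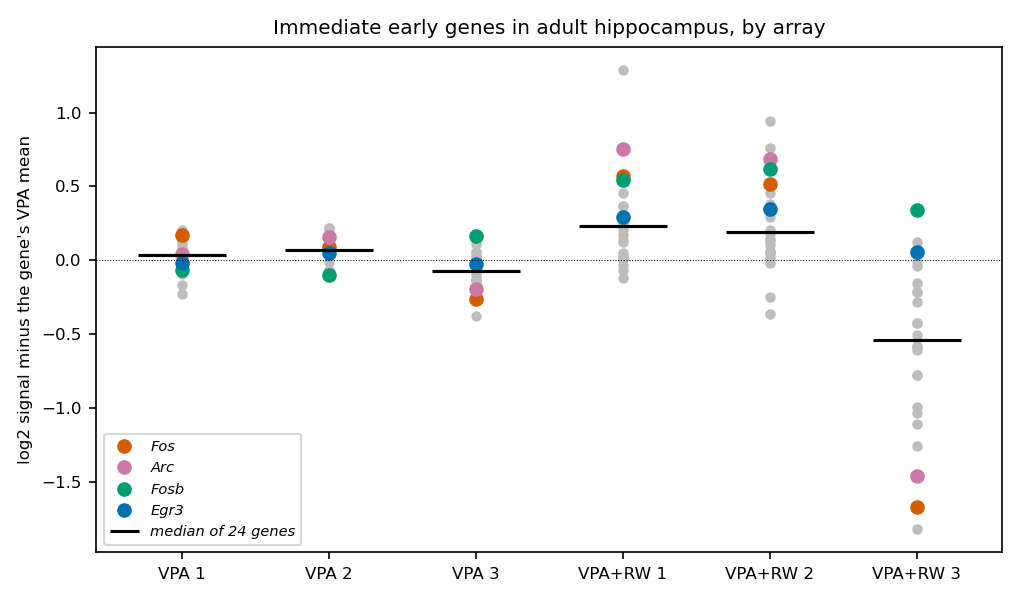
Log2 signal of immediate early genes in each VPA and VPA+RW hippocampus array, relative to the gene's mean in the VPA arrays (vertical axis), 1 point a gene, with the median of the 24 genes as a bar. Fos and Arc lie above the VPA mean in VPA+RW replicates 1 and 2 and below it in replicate 3, where Fos read 345 and Arc 602, while Fosb stays above it.

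Neurotrophic factors and neuropeptides were mostly higher in running mice. Of 20 tested, 17 were higher and 3 lower, with a median of 0.14, and 6 had an unadjusted p under 0.05, all higher, against 4.5% of all genes. The neuropeptide gene Cort, expressed by interneurons, read 70.2, 225 and 60.3 without and 319, 257 and 240.3 with the wheel (log2 difference 1.46, adjusted p = 0.396). In MC mice its difference was -0.35. Inhba, an activin subunit induced by synaptic activity, read 198, 239 and 298 against 381, 461 and 293 (0.62, adjusted p = 0.419), a range that overlapped at replicate 3. Nptx2, a secreted pentraxin that gathers glutamate receptors, read 351, 487 and 484 against 601, 632 and 543 (0.44, adjusted p = 0.513). Npy (0.22), Vgf (0.25) and Ntrk2, the receptor of BDNF (0.16), were higher at unadjusted p-values of 0.0126 to 0.04. The 6 other Ntrk2 probe sets disagreed, with 4 between -0.08 and -0.01 and the others at 0.18 and 0.21.

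Bdnf itself read 814, 686 and 776 in the VPA arrays and 805, 664 and 853 in the VPA+RW arrays, with overlapping ranges (log2 difference 0.02, adjusted p = 0.968), and its sign depended on the array left in. A second Bdnf probe set of like signal gave 0.24 (unadjusted p 0.00856), so the probe sets of this gene disagreed. In MC mice the Bdnf difference at the probe set used for the gene was 0.30 (adjusted p = 0.393). The difference between these differences was -0.27 (adjusted p = 0.963), so the data did not separate the 2 backgrounds. Over the list, MC running gave 15 of 20 higher and 11 of them at an unadjusted p under 0.05, against 4.57% of all genes, led by Npy (0.61, adjusted p = 0.0844) and Nptx2 (0.88, adjusted p = 0.211). Inhba differed by 1.00 there. In cortex after VPA, 5 of the 20 were higher at an unadjusted p under 0.05, against 2.98% of all genes, with Inhba at 1.33 and Nptx2 at 0.61 (adjusted p = 0.141).

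**Figure D4:**
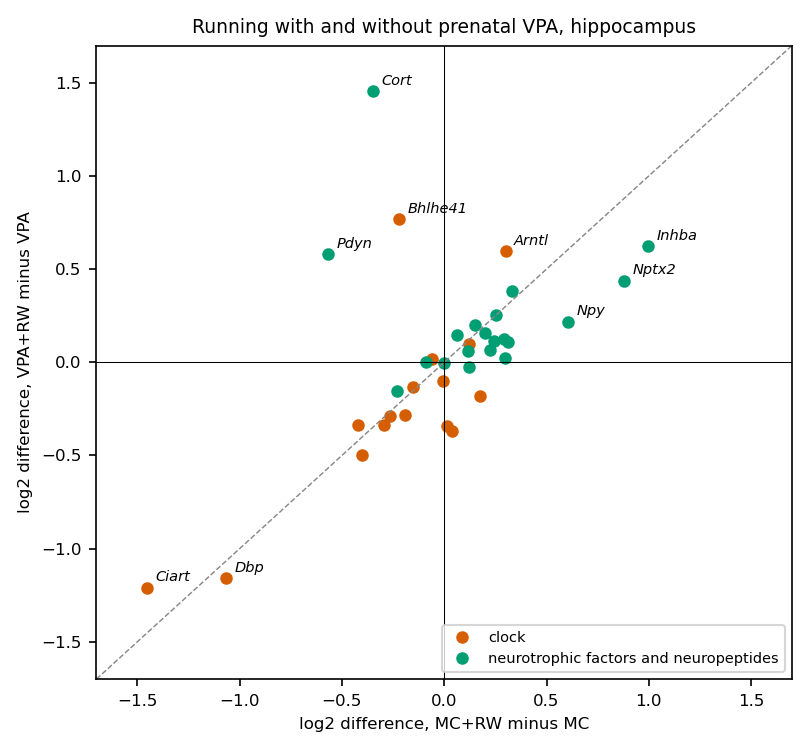
Log2 difference with running after prenatal VPA (vertical axis) against that with running after vehicle (horizontal axis) for genes of the clock list (orange) and the neurotrophic list (green), 1 point a gene, with a dashed line where both are equal. Dbp (-1.16 and -1.06) and Ciart (-1.21 and -1.45) lie low on both axes, and Cort (1.46 and -0.35) has opposite signs.

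Genes of the neurogenic niche lay on both sides of 0. Of 18 newborn neuron genes 10 were higher and 8 lower, with a median of 0.04. Only Neurod2 had an unadjusted p under 0.05, against 8.59% of all genes. Neurod2, a differentiation factor of excitatory neurons, read 2471, 2487 and 2499.8 against 2762, 3002 and 2662 (0.17, adjusted p = 0.519), and in MC mice its difference was 0.38 (adjusted p = 0.145). Dcx, the microtubule protein that marks immature neurons, read 270, 239.7 and 263 against 206, 208 and 277 (-0.17, adjusted p = 0.848), with overlapping ranges. Eomes, a factor of intermediate progenitors (0.60, adjusted p = 0.603), and Sox11 (0.20, adjusted p = 0.715) did not reach an unadjusted p of 0.05. The other Sox11 probe sets gave -0.05 to 0.36, and only the highest had an unadjusted p under 0.05 (0.0389). Among 13 neural stem cell genes, Fabp7 was higher (0.23, adjusted p = 0.546) and Vim (-0.36, adjusted p = 0.442) and Notch1 (-0.22, adjusted p = 0.546) lower.

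Of 20 cell cycle genes listed, 15 were bright enough to test, and the proliferation markers Mki67, Top2a and Cdk1 were not among them. Beside the inhibitor Cdkn1a, the G1 cyclin Ccnd1 was higher, reading 1491, 1409 and 1485 against 1724, 1739 and 1649 (0.22, adjusted p = 0.216). Pcna, the replication clamp (-0.15, adjusted p = 0.435), and Mcm6, part of the replicative helicase (-0.28, adjusted p = 0.546), were lower. Markers of mature dentate granule neurons were more often higher, 11 of 17 with a median of 0.20, and 3 had an unadjusted p under 0.05, all higher, against 4.5% of all genes. Lct, a granule neuron marker in mouse brain, read 1033, 899 and 915 against 1192, 1223 and 1336 (0.40, adjusted p = 0.434), Sipa1l2 differed by 0.20 and Fam163b by 0.28. Prox1, the identity factor of granule neurons, differed by 0.22 (adjusted p = 0.658). In the P84 mice, VPA against MC without a wheel, 15 of 16 tested granule markers were lower, 7 of them at an unadjusted p under 0.05 against 2.66% of all genes there, with a median of -0.27. In the adult arrays the same comparison, which shares the VPA arrays with the running comparison, went the other way. There 11 of 17 were higher, with a median of 0.06. Of these, 3 had an unadjusted p under 0.05, against 5.45% of all genes.

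Chaperone genes were more often higher in running mice. Of 16 genes of the unfolded protein response 13 were higher, with a median of 0.16, and 4 had an unadjusted p under 0.05, all higher, against 4.5% of all genes. Sdf2l1, a stress-induced protein of the endoplasmic reticulum, read 307, 282 and 335 against 419, 428 and 427 (0.47, adjusted p = 0.148), with no overlap. Creld2 (0.35), Manf (0.28) and the chaperone gene Hsp90b1 (0.18) had unadjusted p-values of 0.0227 to 0.0396. In VPA against MC mice without a wheel, a comparison that shares the VPA arrays with the running comparison, 15 of the 16 were lower with a median of -0.13, 4 of them at an unadjusted p under 0.05 against 5.66% of all genes, and Sdf2l1 differed by -0.40. At P84, on arrays that the running comparison does not use, 7 of 15 were higher and 8 lower in VPA mice, with a median of -0.002. In MC mice running gave a median of 0.11. Of 12 heat shock genes 9 were higher, with a median of 0.11, and the 4 at an unadjusted p under 0.05 were Hspa1b (0.31), Hspa8 (0.12), Hsph1 (0.19) and Chordc1 (0.22), against 4.5% of all genes. Without VPA+RW replicate 3, 11 of the 12 were higher, with a median of 0.20, and 6 had an unadjusted p under 0.05, against 4.44% of all genes. Hspa1b has a near-identical copy in Hspa1a, which the probe set may also read.

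Genes that respond to glucocorticoids, the stress hormones, were lower in 10 of 15 cases, with a median of -0.07, and 3 were lower at an unadjusted p under 0.05, against 4.09% of all genes. Without VPA+RW replicate 3 the list turned, with 9 of 15 higher and a median of 0.02. At that level 3 were then lower and 1 higher, against 4.02% and 4.44% of all genes. Sgk1, a kinase that glucocorticoids induce, read 2753, 4198 and 3525 without and 2052, 2353 and 1876 with the wheel (-0.72, adjusted p = 0.216), with no overlap. In cortex Sgk1 differed by -0.80 (adjusted p = 0.17), and in MC hippocampus by -0.16. Tsc22d3, another glucocorticoid target (-0.28, adjusted p = 0.411), and Nr3c1, the glucocorticoid receptor (-0.18, adjusted p = 0.473), were lower, and in MC mice they differed by 0.11 and -0.18. The difference between the running effects after VPA and after vehicle was below 0 for 14 of the 15 genes, 4 at an unadjusted p under 0.05 against 2.04% of all genes, and without VPA+RW replicate 3 for 11, 3 of them at that level against 2.08%. In VPA against MC without a wheel, which shares the VPA arrays, 6 of the 15 were higher at an unadjusted p under 0.05, against 5.45% of all genes, and Sgk1 differed by 0.68. At P84, on arrays that the running comparison does not use, 7 were higher and 8 lower in VPA mice. Their median was -0.01, and none had an unadjusted p under 0.05.

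Markers of pericytes and smooth muscle, the contractile cells of vessel walls, had the lowest list median, -0.29 over 8 genes. Of these 6 were lower and 2 higher, the highest at 0.47. At an unadjusted p under 0.05, 5 were lower and 0 higher, against 4.09% and 4.5% of all genes. Tagln, a smooth muscle actin-binding protein, read 219.7, 395 and 177 against 115, 226 and 62.7, with overlapping ranges (-1.08, adjusted p = 0.519). Acta2 (-0.52), Vtn (-0.33), Rgs5 (-0.21) and Pdgfrb (-0.25) had unadjusted p-values of 0.0133 to 0.0425. The summed signal of the 8 markers was 8615, 9902 and 8122 in the VPA arrays, 6637, 7778 and 6949 in the VPA+RW arrays and 7129 to 8072 in the MC arrays. Endothelial markers, from the same vessels, summed to 10262 to 10903 in the VPA arrays and 9805 to 10555 in the VPA+RW arrays. Of the 13 tested 8 were higher and 5 lower, with a median of 0.01. In VPA cortex 4 of the 8 mural markers were lower at an unadjusted p under 0.05, against 3.26% of all genes, with a median of -0.18, and in MC hippocampus 1 was, against 4.13%. Leaving out VPA+RW replicate 3 left 2 of the 8 at an unadjusted p under 0.05, against 4.02% of all genes, with a median of -0.25.

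Interferon-induced and histocompatibility genes were lower in 13 of 15 cases, with a median of -0.26. H2-Aa, a class II antigen-presenting chain (-0.75, adjusted p = 0.442), and the antiviral genes Oasl2 (-0.55, adjusted p = 0.559) and Ifit3 (-0.39, adjusted p = 0.572) were the 3 with an unadjusted p under 0.05, against 4.09% of all genes. Without VPA+RW replicate 3 there was 1, and the median was -0.17. In MC running the median was -0.01 with no gene at that level, and in P84 mice 12 of 14 were higher in VPA. The summed signal of the microglial markers was 16502 to 17151 in the VPA arrays and 15809 to 16903 in the VPA+RW arrays. Of the 16 tested 9 were higher and 7 lower, with a median of 0.03. Ribosomal protein genes were lower in 14 of 15 cases but with a median of -0.07. What part the mural and immune markers have in the other differences was not tested.

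Among the other lists, ependymal markers were higher in 6 of 7 cases (median 0.14) and striatal neuron markers in 6 of 8 (0.13). Meningeal and fibroblast markers were lower in 10 of 12 cases (median -0.09), but without VPA+RW replicate 3 higher in 7 of 12 (0.03). Astrocyte markers were lower in 9 of 14 cases (median -0.01) and without that array higher in 10 of 14 (0.05). None of the ependymal or meningeal markers had an unadjusted p under 0.05. Of the striatal markers 1 did, and of the astrocyte markers 1, against 8.59% of all genes. Medians were 0.09 for myelin (10 of 14 higher), 0.02 for pyramidal neurons, 0.01 for interneurons, -0.01 for the respiratory chain and 0.01 for histone deacetylases. Ion channel, receptor and vesicle release lists had medians from -0.07 for GABA-A receptor subunits to 0.00 for potassium channels.

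**Figure D5:**
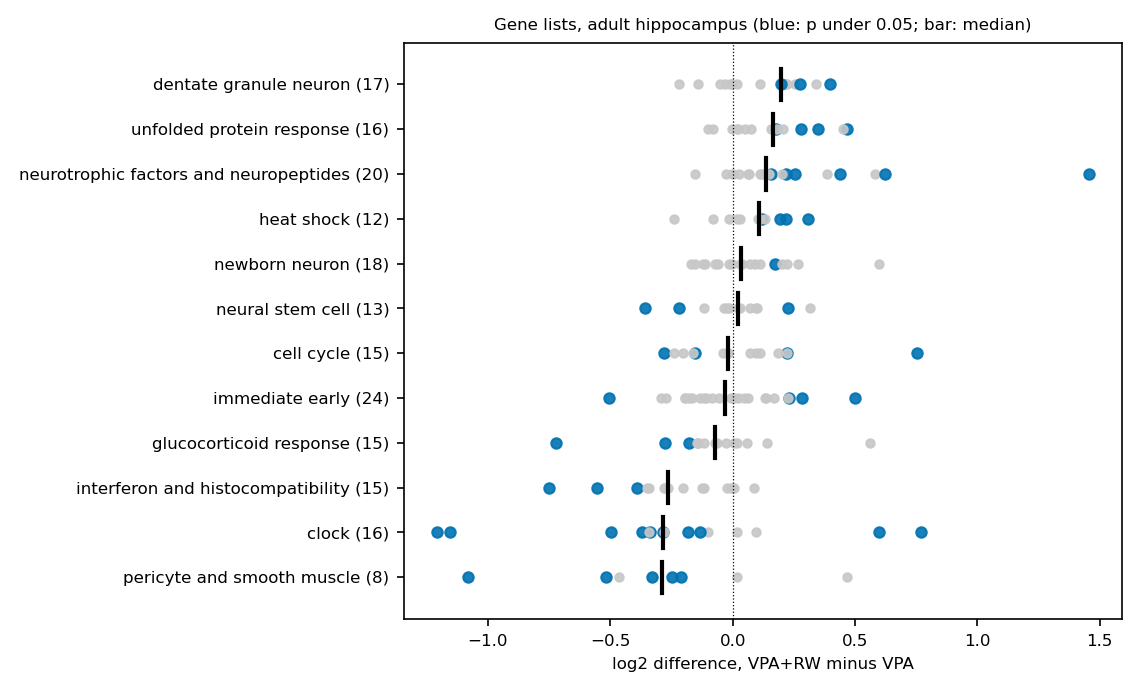
Log2 difference, VPA+RW minus VPA (horizontal axis), of every tested member of 12 gene lists in adult hippocampus, 1 point a gene, with the median as a bar and genes with an unadjusted p under 0.05 in blue. The clock (-0.28), pericyte and smooth muscle (-0.29) and interferon (-0.26) lists have medians furthest below 0, and the dentate granule neuron (0.20) and unfolded protein response (0.16) lists lie above it.

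Running without prenatal VPA was measured on 6 other hippocampus arrays. limma called 0 of 13501 genes there as well (0%, smallest adjusted p 0.0648), with 1175 (8.7%) at an unadjusted p under 0.05. Across these genes, which are not independent replicates, the log2 differences after VPA and after vehicle had a Pearson correlation of 0.12 and a Spearman correlation of 0.17, and 57.8% had the same sign. Igfbp6 (0.59), Inf2 (0.49), Rab40c (0.42), Acvr1c (0.39) and Cdkn1a (0.26) were higher with running in MC mice too. The test of whether running acted differently after VPA called 0 of 13501 genes (0%, smallest adjusted p 0.874), with 621 (4.6%) at an unadjusted p under 0.05. Its leading genes were Usp30, a mitochondrial deubiquitinase, at 0.41 after VPA and -0.52 after vehicle (difference 0.92, adjusted p = 0.874), and Polr1a, the large subunit of RNA polymerase I, at -0.29 and 0.41 (difference -0.70, adjusted p = 0.874). Numbl (0.86), Cdk5rap3 (0.61), Aph1a (-0.62) and Heca (-0.33) followed, all at an adjusted p of 0.874. Other probe sets disagreed for 3 of these genes: after VPA, Usp30 had -0.02, Polr1a -0.01, and Aph1a 0.48 and 0.01 against -0.23 at the probe set used. A difference between the backgrounds was thus not shown for any gene.

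Running after VPA in cortex called 0 of 13640 genes (0%, smallest adjusted p 0.0711), with 851 (6.24%) at an unadjusted p under 0.05. Log2 differences in the 2 tissues had a Pearson correlation of 0.07 and a Spearman correlation of 0.11 across 13267 genes, and 55.6% had the same sign. The difference between hippocampus and cortex passed for 0 of 14046 genes (0%), with 739 (5.26%) at an unadjusted p under 0.05. The smallest p-values included those of genes already named for the hippocampus: Rab40c (1.07, adjusted p = 0.183), Igfbp6 (0.68) and Pex3 (-0.63). Igfbp6 differed by 0.04 in cortex and Rab40c by -0.25. These 3 were chosen for their hippocampus values, which enter this difference. Cluap1 (0.75), Pgghg (-0.91) and Fam32a (-0.48) led beside them.

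Prenatal VPA without a wheel called 0 of 13501 genes in the adult hippocampus (0%, smallest adjusted p 0.224), with 1500 (11.1%) at an unadjusted p under 0.05, and 0 of 13076 at P84 (0%), with 636 (4.86%). The adult comparison shares the VPA arrays with the running comparison. On the P84 arrays, which share none, log2 differences for VPA against MC had a Pearson correlation of -0.03 and a Spearman correlation of -0.00 with those for running after VPA across 12977 genes, and 50.6% had the same sign.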

How the data were processed

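Total RNA was hybridised to Affymetrix Mouse 430 2.0 arrays. The authors deposited 1 linear intensity per probe set and array, made with GCOS per the submitters' processing notes, and their summary algorithm and scale were not known. The 45101 probe sets were named from the platform annotation: 34958 had 1 gene symbol, 932 several and 9211 none, and 34754 were matched by Entrez number. Arrays were brought to a common 2% trimmed mean (500), floored at 32 and taken to log2. The probe set with the highest mean over the 32 adult and P84 arrays stood for each of 18193 genes. Genes at 100 or more in at least 3 fitted arrays (4 at P84) were tested with limma 3.58.1 in R 4.3.3 (lmFit, eBayes with a trend, Benjamini-Hochberg over all genes tested, threshold 0.05), with 1 term a group. The scripts were tested on simulated data.

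Named genes were those passing the test. As none passed, they were the 10 genes in each direction with the smallest p, no overlap between groups and a mean signal of 200 or more where higher, and up to 4 members of each of 38 gene lists by p. The further clock genes and Fos, Arc, Bdnf, Npy, Vgf, Dcx, Eomes, Sox11, Prox1 and Pdgfrb were added after their values were seen. The lists hold 616 entries, of which 564 matched a gene. The comparison, members and lists were chosen with earlier results of these data known. The p-values measure the spread between arrays that the labels call biological replicates, and nothing says that these came from separate litters. Their number limits the precision. Alternatives were values as deposited, other filters, quantile scaling, other probe set rules and moderation, array weights, a replicate block, fits of the compared groups only and leaving out each array. Leaving out VPA+RW replicate 3 from the list counts was chosen after seeing the data.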

Additional observations from a re-analysis of the deposited data

Results flagged for a closer look

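Among the 20 named genes, the groups of 4 P84 arrays were searched for a highest or lowest array far from the others by Dixon's test. Of 40 groups 4 had one, where chance at 1 in 20 gives 2. Pex3 read 1251 in 1 MC array against 985, 1007 and 1011 in the others, and 1075 in 1 VPA array against 949.6, 952 and 961. Gpc5 read 917 in 1 VPA array against 1135, 1156 and 1161. Acvr2b read 169 in 1 VPA array against 231, 234 and 236. The adult groups, with 3 arrays each, were not searched this way, and no adult result rests on these arrays.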

How the results depend on the processing

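Over the alternatives run, none of the 20 named genes changed sign. They were named only where the groups did not overlap, so leaving out 1 array or weighting arrays could not reverse a sign. The count of genes passing, 0 in the 7 comparisons, moved under these settings, and the cause was not tested. With no filter on low signal it was 2 for running after VPA (Slc44a4 and Zfp980), 1 for running after vehicle, 2 for VPA against MC, 3 for the difference between the backgrounds, 2 for the difference between tissues and 1 at P84. With array weights it was 34 for running after VPA, 6 for running after vehicle and 5 in cortex. On values as deposited it was 2 in cortex and 31 at P84 (3 higher and 28 lower), where the median of all genes moved to -0.182. Fitting only the groups compared gave 1 for VPA against MC. Leaving out 1 array gave 0 to 5 for running after VPA, 0 to 7 for running after vehicle, 0 to 4 for VPA against MC, 0 to 1 for the difference between the backgrounds, 0 to 3 in cortex, 0 to 1 for the difference between tissues and 0 to 2 at P84. For running after VPA the highest count came without VPA+RW replicate 3 (Dbp, Nr1d2, Wdr6, Doc2b and Lcat), and without VPA replicate 2 Arntl alone passed (adjusted p = 0.00748).

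Among other genes named, 4 near 0 changed sign. Nr1d1 was -0.0284 on values as deposited, -0.10 with array weights and, with 1 array left out, -0.25 (VPA+RW replicate 3) to 0.25 (VPA+RW replicate 2). Bdnf was -0.0227 on values as deposited and -0.0492 (VPA+RW replicate 3) to 0.13 (VPA+RW replicate 2) with 1 array left out. Fos was 0.19 with array weights and -0.58 (VPA+RW replicate 1) to 0.54 (VPA+RW replicate 3) with 1 array left out. Arc was 0.39 with array weights and -0.39 (VPA+RW replicate 1) to 0.72 (VPA+RW replicate 3) with 1 array left out. The replicate block called 0 genes in every comparison it was run for (smallest adjusted p 0.134 for running after VPA). Arrays of the same number correlated at -0.052, 0.163 and 0.052 in their deviations from the group means, so the numbers were not taken as pairs.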

Other observations

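Of 16 genes of cholesterol synthesis 8 were higher and 8 lower in running mice, with a median log2 difference of -0.01. Of 14 genes of glycolysis and hypoxia 8 were higher, with a median of 0.01. Of 19 histone methylation enzymes none had an unadjusted p under 0.05 in limma's test. Of 7 thyroid hormone genes 1 did, against 8.59% of all genes. Among the genes that limma called only when VPA+RW replicate 3 was left out, Doc2b, a calcium sensor of vesicle release, had a log2 difference of 0.46 (adjusted p = 0.0457) and Lcat, a cholesterol-esterifying enzyme, one of 0.54 (adjusted p = 0.0457). Both were chosen after their values were seen.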
